A study of Homo sapiens with 9 samples.

Results

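The aminoacyl-tRNA synthetases are the enzymes that join each amino acid to its transfer RNA, and 35 of their genes were followed here in a human pancreatic neuroendocrine tumour cell line after knockdown of RABL6A. Genes were taken by name, by the platform's symbol or an older form of it. No measured value entered that rule, but the list was chosen with earlier results of these data known. They comprise 19 genes of the cytosolic enzymes and 16 of the mitochondrial enzymes, whose symbols end in 2. Of these, 34 had a probe and were tested among 12498 genes in all (18 cytosolic and 16 mitochondrial). No probe carried the name of CARS1, the cytosolic cysteinyl enzyme. Each of the 34 was detected on 9 of 9 arrays, meaning a detection p under 0.05 against the array's negative controls.

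The cells were BON-1, an established line from a pancreatic neuroendocrine tumour. The 3 groups of 3 arrays were BON-1 cells with control vector, with a first RABL6A shRNA (shRNA 1) and with a second one (shRNA 2). All 3 groups carried a pLKO.1 lentiviral construct, so the vector cells are infected cells and not untreated ones. Each group's RNA came from 3 sets of cells that the labels call separately made, and whether each set was its own infection is not stated. The p-values therefore cover the variation among these samples, which may be technical. All results come from 1 line and from RNA, and protein and enzyme activity were not measured.

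Cytosolic and mitochondrial protein synthesis use mostly separate synthetases, all encoded in the nucleus, and the mitochondrial ones are imported after synthesis. The GARS1 and KARS1 genes each make both a cytosolic and a mitochondrial form and are counted here as cytosolic. Several cytosolic enzymes sit together in a multisynthetase complex held by scaffold proteins, and the cytosolic phenylalanyl enzyme is built from alpha chains (FARSA) and beta chains (FARSB), whereas its mitochondrial counterpart FARS2 is a single chain. Many cytosolic synthetase genes are known targets of ATF4, the transcription factor of the amino acid shortage response.

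Values below are log2 signals after background correction and quantile normalization, and a change is a difference of mean log2 signals. On this scale the fold changes of dim genes are understated, and levels of different probes cannot be set against each other. RABL6, the targeted gene, had log2 signals of 7.57, 7.73 and 7.82 on the vector arrays, 6.01, 5.98 and 5.22 on those of shRNA 1, and 5.67, 5.69 and 5.69 on those of shRNA 2. Every knockdown array was below every vector array, and the mean was 25.1% of vector (log2 change -1.99, SE 0.19, limma adjusted p = 0.0014). Raw signals ran from 294.5 to 341.3 with vector and from 130.4 to 171.3 in knockdown. The median probe signal of the arrays was 119.5 to 128.8, so that percentage rests on the background correction. Of 12 neuroendocrine markers 11 were tested, and each was detected on 9 arrays. On the same comparison 4 of these fell, NKX2-2, SLC18A1, FEV and INSM1, and 2 rose, ENO2 and SCG5. Of all genes 8.09% fell and 8.54% rose. The part of these markers in the results below was not tested. Of the markers of other cell types, 1 of 8 for fibroblasts, 4 of 9 for blood cells and 2 of 5 for endothelium were bright enough to test. KDR (log2 change 1.00) and HBA1 (0.52) were the members of these lists that rose.

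The arrays labelled replicate 2 of each shRNA resembled the other shRNA's arrays. Across the 12498 genes, replicate 2 of shRNA 1 correlated at 0.994 and 0.989 with replicates 1 and 3 of shRNA 2, against 0.933 and 0.945 with replicates 1 and 3 of its own label. Replicate 2 of shRNA 2 correlated at 0.995 and 0.989 with replicates 1 and 3 of shRNA 1, against 0.933 and 0.939 with those of its own label. The labels were kept throughout. Results are also given on 7 arrays, with both of these left out. The choice of arrays to leave out rests on these same values, so counts and p-values on 7 arrays are descriptive only.

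**Figure D1:**
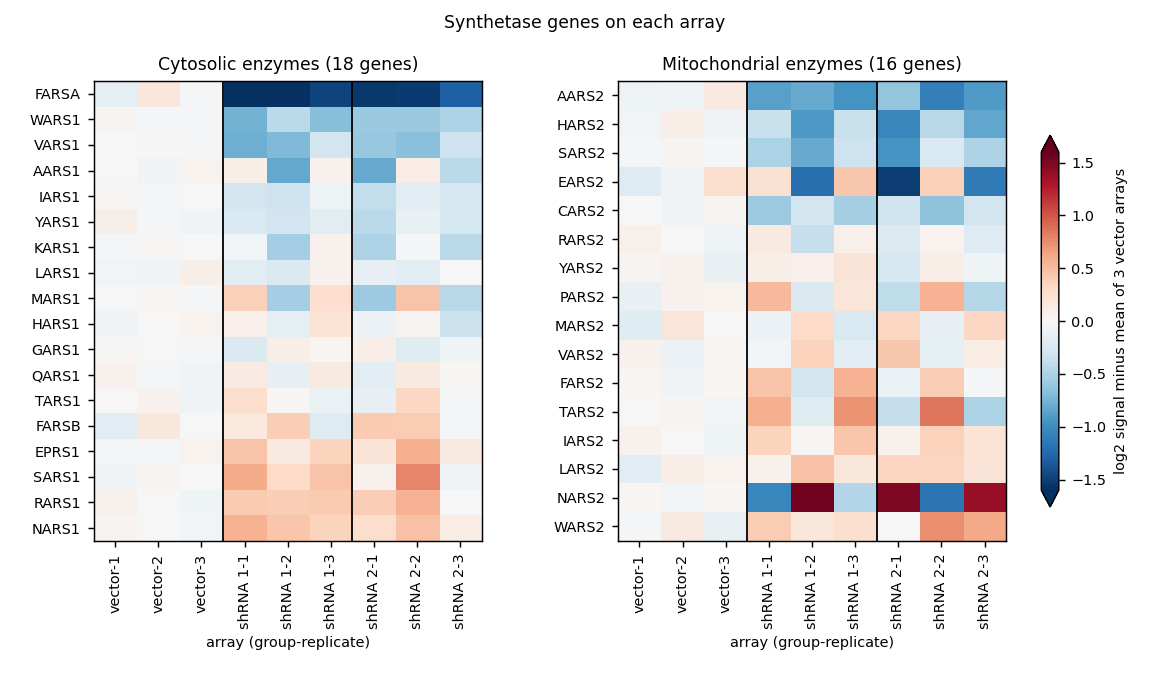
Log2 signal of each tested synthetase gene relative to the mean of the vector arrays, by array (columns, 3 per group), with cytosolic and mitochondrial genes in separate blocks. Colours are clipped at 1.6 log2 units. FARSA is low on all 6 knockdown arrays, whereas NARS2 runs from -1.17 to 1.54 over the same arrays.

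With both shRNAs against vector, 6 of the 34 synthetase genes fell and none rose. The genes were FARSA, WARS1 and VARS1 of the cytosolic set (3 of 18, 16.7%) and AARS2, HARS2 and CARS2 of the mitochondrial set (3 of 16, 18.8%). A call means an adjusted p under 0.05 by limma with Benjamini-Hochberg adjustment over all genes. The share called, 17.6%, was near that of all genes, of which 16.6% were called, 8.09% lower and 8.54% higher. Calls in the lower direction made up 17.6% of the synthetase genes against that 8.09%, a difference between shares that was not tested. Without any 1 of the vector arrays 2 genes were called, FARSA and AARS2, and without replicate 1 of shRNA 1 or replicate 1 of shRNA 2 there were 3.

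The median log2 change was -0.01 over the 34 genes and 0.03 over all genes. The cytosolic median was -0.06, with 11 genes below 0 and 7 above. The mitochondrial median was 0.06, with 6 genes below 0 and 10 above, and it turned negative with median centring (-0.06) and without replicate 2 of shRNA 2 (-0.03). Median centring in place of quantile normalization moved the median of all genes to -0.08 and the calls over all genes to 1432 lower and 613 higher, from 1011 and 1067. Under it 8 synthetase genes were called, all lower. Single cytosolic genes ran from -1.59 (FARSA) to 0.37 (NARS1) and single mitochondrial genes from -0.88 (AARS2) to 0.36 (WARS2). The difference between the medians of the sets was not tested.

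**Figure D2:**
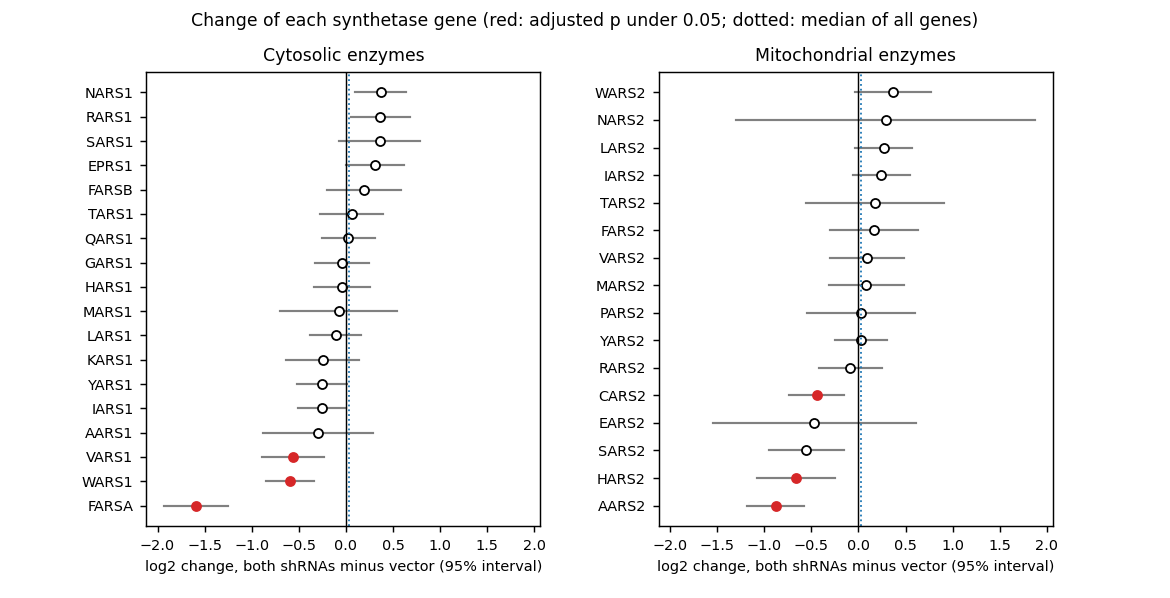
Log2 change of each synthetase gene, both shRNAs minus vector, with its 95% interval from the limma fit over 9 arrays, cytosolic and mitochondrial genes apart. Red marks the 6 genes with an adjusted p under 0.05, which all lie below 0, and the dotted line is the median of all genes (0.03).

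FARSA, the alpha chain of the cytosolic phenylalanyl enzyme, had the largest fall of the 34. Its log2 signals were 8.34, 8.67 and 8.46 on the vector arrays, 6.50, 6.77 and 7.01 after shRNA 1 and 6.95, 6.96 and 7.18 after shRNA 2. The groups did not overlap, and the lowest vector array stood more than 1 log2 unit above the highest knockdown array. The mean was 33.1% of vector (log2 change -1.59, SE 0.15, limma adjusted p = 0.0014). RNA was taken from whole cultures, so fewer cells with the transcript and less of it per cell cannot be told apart. The fall was -1.73 with shRNA 1 (adjusted p = 0.00326) and -1.46 with shRNA 2 (adjusted p = 0.00488), and both comparisons share the vector arrays. Raw signals ran from 432.9 to 554.5 with vector and from 188 to 241.1 in knockdown, on arrays whose median probe signal was 119.5 to 128.8. The size of the fall therefore moves with the background correction, and was -1.07 with none. Among all genes tested, 107 fell by more than FARSA.

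FARSB, which encodes the beta chain of the same enzyme, did not pass the test. Relative to the vector mean, its log2 signals were 0.17, 0.39 and -0.20 with shRNA 1 and 0.42, 0.40 and -0.02 with shRNA 2, and the vector arrays lay between -0.17 and 0.18. The groups overlapped, and the change was 0.19 with a 95% interval from -0.20 to 0.59. The difference between the FARSA and FARSB changes was -1.79, and on single knockdown arrays it ran from -2.16 to -1.27. It was below every vector array on 6 of 6 knockdown arrays (exact two-sided permutation test over the 84 splits of 6 against 3 arrays, p = 0.0119, the smallest it can give; 0.0255 adjusted over 15 pairs). On 7 arrays the difference was -1.67. FARS2, the mitochondrial phenylalanyl enzyme, changed by 0.17 without a call, and FARSA minus FARS2 was -1.76 (exact permutation p = 0.0119; adjusted 0.0255).

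The 250 bases before the annotated start of FARSA are shown because this gene carries the largest change of the set. They were chosen after its values were seen. The sequence is from RefSeq (GRCh38.p14, chr19:12933712-12933961, minus strand), is printed 5′ to 3′ and holds no match to TGATGNAA, the core of the element that ATF4 binds together with its partner factors.
FARSA: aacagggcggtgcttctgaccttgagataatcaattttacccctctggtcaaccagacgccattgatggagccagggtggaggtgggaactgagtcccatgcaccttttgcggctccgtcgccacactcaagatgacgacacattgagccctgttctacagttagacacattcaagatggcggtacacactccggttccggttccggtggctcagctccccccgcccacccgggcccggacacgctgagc

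WARS1, the cytosolic tryptophanyl enzyme and a gene known to be induced by interferon gamma, fell. Its log2 signals were 10.26, 10.19 and 10.20 on the vector arrays, 9.47, 9.79 and 9.54 after shRNA 1 and 9.63, 9.63 and 9.71 after shRNA 2. All 6 knockdown arrays lay below the vector arrays, at 66.4% of vector (log2 change -0.59, SE 0.11, adjusted p = 0.0117). A second probe of WARS1 gave -0.60. The call was lost when any 1 of the vector arrays was left out, with an adjusted p between 0.0617 and 0.0653, while the other settings kept it.

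VARS1, the cytosolic valyl enzyme, fell by a like amount. Its log2 signals were 10.39, 10.39 and 10.35 on the vector arrays, 9.59, 9.67 and 10.08 after shRNA 1 and 9.76, 9.71 and 10.05 after shRNA 2. The groups did not overlap, and in both shRNA groups replicate 3 was the nearest to vector. The change was -0.57 (SE 0.14, adjusted p = 0.0312). The call was lost without any 1 of the vector arrays (adjusted p up to 0.124), without replicate 1 of shRNA 1 (0.0624) and without replicate 1 of shRNA 2 (0.0641).

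AARS2, the mitochondrial alanyl enzyme, had the largest fall of the mitochondrial set in the main fit. Its log2 signals were 7.17, 7.19 and 7.40 on the vector arrays, 6.39, 6.45 and 6.30 after shRNA 1 and 6.62, 6.16 and 6.35 after shRNA 2. Every knockdown array was lower than every vector array, and the mean was 54.4% of vector (log2 change -0.88, SE 0.13, adjusted p = 0.00542). The change was -0.87 with shRNA 1 and -0.88 with shRNA 2. Raw signals were low, from 247.9 to 274.3 with vector and from 168 to 197.2 in knockdown. The size of the fall therefore moves with the background correction, and was -0.46 with none. That is less than the fall of HARS2, which was at least 0.56 in every alternative run. AARS2 and FARSA kept their calls in each of the 23 alternative settings run. The cytosolic alanyl enzyme AARS1 changed by -0.30 (95% interval -0.88 to 0.29) and was not called.

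HARS2, the mitochondrial histidyl enzyme, fell with more spread. Its log2 signals were 9.98, 10.13 and 9.96 on the vector arrays, 9.67, 9.10 and 9.67 after shRNA 1 and 8.98, 9.57 and 9.19 after shRNA 2. The groups did not overlap, and the mean was 63.3% of vector (log2 change -0.66, SE 0.18, adjusted p = 0.0401). CARS2, the mitochondrial cysteinyl enzyme, had log2 signals of 6.82, 6.76 and 6.86 on the vector arrays, 6.23, 6.52 and 6.28 after shRNA 1 and 6.49, 6.17 and 6.52 after shRNA 2. It lay lower on 6 of 6 knockdown arrays, by the smallest of the called changes (-0.44, SE 0.13, adjusted p = 0.0465). Both calls lie close to the threshold. Leaving out any vector array, or replicate 1 of either shRNA, ended both calls. The HARS2 call also ended without replicate 3 of shRNA 2, and that of CARS2 without replicate 3 of shRNA 1 or replicate 2 of shRNA 2. With no background correction CARS2 had an adjusted p of 0.0537, and on the authors' deposited table of values one of 0.0517.

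HARS1 and HARS2 lie next to each other on chromosome 5 and are transcribed away from each other. Their annotated starts, at 140691370 and 140691455, are 84 bases apart in RefSeq (GRCh38.p14, chr5:140691371-140691454, plus strand, GC content 59.5%). The whole interval is shown because the neighbours differed in their response. HARS1 is read to the left of it and HARS2 to the right.
HARS1-HARS2 interval: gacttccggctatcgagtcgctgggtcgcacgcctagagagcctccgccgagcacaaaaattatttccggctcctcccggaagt

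HARS1, the cytosolic histidyl enzyme, was not called. Relative to the vector mean its log2 signals were 0.08, -0.15 and 0.21 on the shRNA 1 arrays and -0.10, 0.05 and -0.34 on the shRNA 2 arrays, which lie on either side of vector. The change was -0.04, with a 95% interval from -0.34 to 0.26, beside -0.66 for HARS2. HARS1 minus HARS2 was 0.62, between 0.43 and 0.94 on single knockdown arrays and between -0.10 and 0.12 on the vector arrays (exact permutation p = 0.0119; 0.0255 adjusted over 15 pairs). The difference was 0.61 on 7 arrays.

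**Figure D3:**
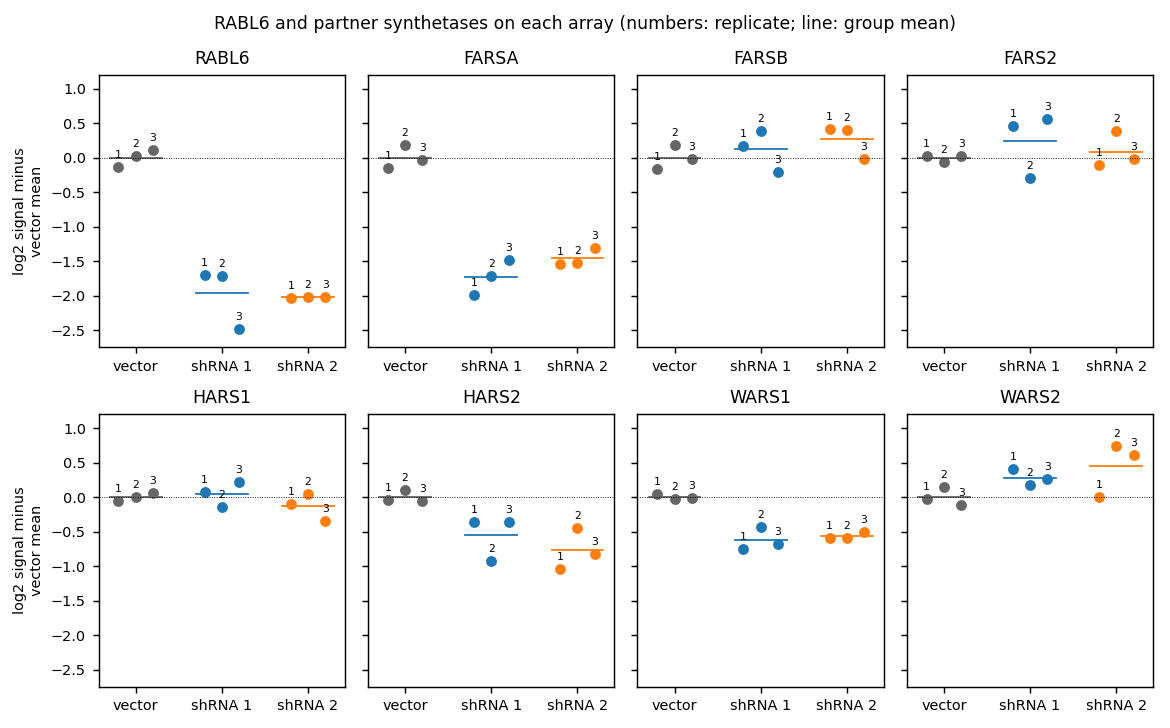
Log2 signal relative to the vector mean on each array (points, numbered by replicate), with the group mean (line). Shown are RABL6, the phenylalanyl chains FARSA, FARSB and FARS2, and the cytosolic and mitochondrial histidyl (HARS1, HARS2) and tryptophanyl (WARS1, WARS2) enzymes. FARSA, HARS2 and WARS1 are lower on all knockdown arrays than on any vector array, whereas FARSB and HARS1 overlap with vector.

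Cytosolic and mitochondrial enzymes for the same amino acid were paired over 13 amino acids, each phenylalanyl chain with FARS2. FARSA against FARSB, chains of the same cytosolic enzyme, was added, giving 15 pairs in all. The difference within a pair passed an adjusted p of 0.05 by the exact permutation test in 8 of them. The share among pairs of other genes was not computed, so whether 8 is more than other pairs would give is not known. By another measure, lack of overlap in single genes, 14.2% of all genes lay fully below and 15% fully above the vector arrays. FARSA is in the pairs with FARSB and with FARS2, so the 8 are not separate results. The 8 differences ran in both directions. In tryptophan the cytosolic gene moved below the mitochondrial one, by -0.96, as WARS2 changed by 0.36 (adjusted p = 0.191, not called). The isoleucyl pair (IARS1 minus IARS2, -0.50) and the tyrosyl pair (YARS1 minus YARS2, -0.28) ran the same way, each with an exact p of 0.0119 and an adjusted p of 0.0255. In serine the cytosolic gene moved above the mitochondrial one, with SARS1 minus SARS2 at 0.91 (0.44 to 1.11 over the knockdown arrays; adjusted p = 0.0255). In arginine RARS1 minus RARS2 was 0.45 (exact permutation p = 0.0238; adjusted 0.0446).

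The valyl pair (VARS1 minus VARS2, -0.65) and the leucyl pair (LARS1 minus LARS2, -0.38) each had an exact permutation p of 0.0357 and did not pass after adjustment (0.0536). The alanyl pair differed by 0.58 and overlapped with vector (adjusted p = 0.211). The methionyl pair (-0.16), the threonyl pair (-0.12), the asparaginyl pair (0.08) and FARSB minus FARS2 (0.03) had adjusted p-values from 0.797 to 0.964. In these 4 the difference took both signs over the knockdown arrays. In the asparaginyl pair it ran from -1.28 to 1.64, so a difference of that size is within the spread.

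The 28 genes that were not called had changes from -0.55 (SARS2, mitochondrial seryl) to 0.37 (NARS1, cytosolic asparaginyl). The half-width of their 95% intervals ran from 0.25 to 1.58, and a change smaller than its half-width has an interval that includes 0. These intervals are not adjusted for the number of genes, so some larger changes were not called either. SARS2, with an interval from -0.95 to -0.16, is an example. In 9 of the 34 genes every knockdown array lay below every vector array, and 14.2% of all genes did so. In 2 every knockdown array lay above, as in 15% of all genes.

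Beyond the 6 called genes, the 3 that lay below vector on every knockdown array were SARS2, IARS1 and YARS1. SARS2 was at -0.51, -0.80 and -0.34 with shRNA 1 and at -0.94, -0.24 and -0.50 with shRNA 2, relative to the vector mean (change -0.55, adjusted p = 0.0617). IARS1, the cytosolic isoleucyl enzyme, ran from -0.39 to -0.08 (change -0.26, adjusted p = 0.149). YARS1, the cytosolic tyrosyl enzyme, ran from -0.43 to -0.11 (change -0.26, adjusted p = 0.166). None of the 3 passed the test.

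NARS1 and EPRS1 lay above vector on every knockdown array without passing the test. NARS1 stood at 0.56, 0.44 and 0.36 with shRNA 1 and at 0.28, 0.47 and 0.11 with shRNA 2, relative to the vector mean (change 0.37, adjusted p = 0.0662). EPRS1, which joins glutamyl and prolyl activities in 1 cytosolic chain, ran from 0.14 to 0.56 (change 0.31, adjusted p = 0.155). Other cytosolic genes with positive changes were RARS1 (0.36), SARS1 (0.36), FARSB (0.19), TARS1 (0.06) and QARS1 (0.02). The dual-form genes GARS1 and KARS1 changed by -0.04 and -0.25, and LARS1, MARS1 and AARS1 by -0.11, -0.08 and -0.30.

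Among the other mitochondrial genes, LARS2 (0.27), IARS2 (0.24), TARS2 (0.18), VARS2 (0.09), MARS2 (0.09), PARS2 (0.03) and YARS2 (0.03) had positive changes and RARS2 (-0.09) a negative one, and none was called. MARS2 had a second kept probe, at 0.11. The widest spread was also among the mitochondrial genes, in NARS2 (0.29, SE 0.70) and EARS2 (-0.47, SE 0.47). Those values rest on arrays of the same label that lay far apart.

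Each shRNA alone against vector called 3 of the 34 genes (8.82%), all lower. They were FARSA, AARS2 and WARS1 in both comparisons, which share their vector arrays. Over all genes shRNA 1 called 11.1% (5.56% lower and 5.58% higher), and shRNA 2 called 8.68% (4.08% lower and 4.6% higher). WARS1 changed by -0.62 (adjusted p = 0.0241) with shRNA 1 and by -0.56 (adjusted p = 0.0337) with shRNA 2. Leaving out any 1 vector array left 1 call for each shRNA. Without replicate 1 of shRNA 1 its comparison also had 1 call, and without replicate 2 of shRNA 2 it had 6.

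Between the shRNAs, shRNA 2 minus shRNA 1, limma called 0 of the 34 genes and 0% of all genes on 9 arrays. At an unadjusted p under 0.05 there were 0 of the 34 and 96 of 12498. Each label holds a replicate 2 that resembled the other shRNA's arrays, which widens the spread within a label. The 0 therefore does not show that the shRNAs act alike. Under array weights, which count arrays by how well they fit, 12 of the 34 and 4346 of 12498 genes were called.

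NARS2, the mitochondrial asparaginyl enzyme, had the widest range over the knockdown arrays, 2.71 log2 units. Relative to the vector mean it stood at -1.05, 1.54 and -0.47 with shRNA 1 and at 1.49, -1.17 and 1.40 with shRNA 2, while the vector arrays lay within -0.05 to 0.03. Replicate 2 stood on the opposite side of 0 from replicates 1 and 3 under both labels. EARS2, the mitochondrial glutamyl enzyme, ran the other way, at 0.24, -1.20 and 0.43 with shRNA 1 and at -1.52, 0.38 and -1.14 with shRNA 2. Its vector arrays lay between -0.21 and 0.26.

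TARS2, the mitochondrial threonyl enzyme, stood at 0.57, -0.20 and 0.72 with shRNA 1 and at -0.38, 0.86 and -0.50 with shRNA 2. MARS1, the cytosolic methionyl enzyme, stood at 0.38, -0.54 and 0.27, and at -0.58, 0.45 and -0.44. PARS2, the mitochondrial prolyl enzyme, stood at 0.52, -0.24 and 0.19, and at -0.41, 0.55 and -0.46. In each of these, as in EARS2, replicate 2 of shRNA 1 lay below 0 with replicates 1 and 3 of shRNA 2, and replicate 2 of shRNA 2 lay above 0 with replicates 1 and 3 of shRNA 1.

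AARS1 stood at 0.09, -0.82 and 0.07 with shRNA 1 and at -0.80, 0.12 and -0.43 with shRNA 2, and KARS1 at -0.04, -0.55 and 0.07 and at -0.49, -0.03 and -0.43. The same 3 arrays were low in both genes, while the other 3 were near vector. LARS1, the cytosolic leucyl enzyme, had the smallest range over the knockdown arrays, 0.29.

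**Figure D4:**
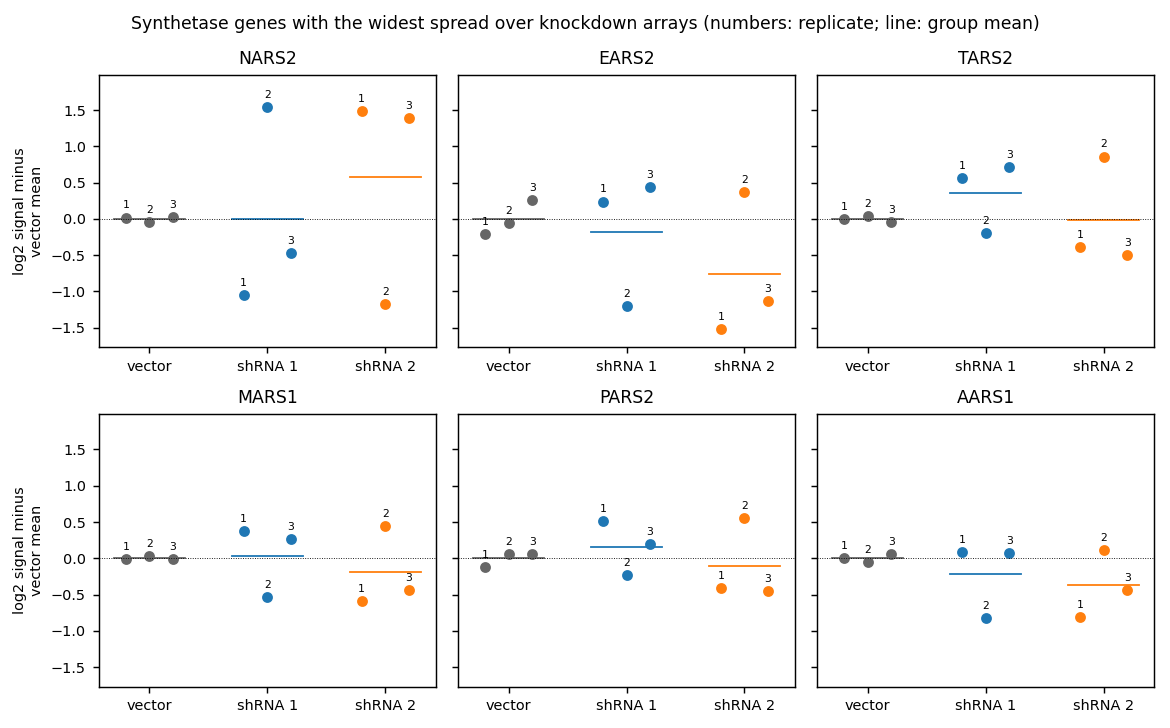
Log2 signal relative to the vector mean on each array (points, numbered by replicate) for the 6 synthetase genes with the widest range over the knockdown arrays. In NARS2 replicate 2 of shRNA 1 (1.54) stands with replicates 1 and 3 of shRNA 2, and in EARS2, TARS2, MARS1, PARS2 and AARS1 the same array stands below 0 with them.

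The medians of both sets moved over the arrays in the same way. The cytosolic median relative to vector was 0.08, -0.19 and 0.07 on the shRNA 1 arrays and -0.15, 0.08 and -0.17 on those of shRNA 2. The mitochondrial median was 0.08, -0.22 and 0.13, and -0.24, 0.08 and -0.14. On each knockdown array both medians lay on the same side of 0.

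On 7 arrays, with replicate 2 of both shRNAs left out, more genes passed. Both shRNAs against vector then called 9 synthetase genes lower and 2 higher (32.4% of 34), where all genes gave 41.2% (20.5% lower and 20.7% higher). The lower ones were FARSA (-1.58), AARS2 (-0.84), HARS2 (-0.65), WARS1 (-0.63), SARS2 (-0.57), VARS1 (-0.51), EARS2 (-0.50), CARS2 (-0.43) and YARS1 (-0.28). The higher ones were NARS1 (0.33, adjusted p = 0.0311) and EPRS1 (0.29, adjusted p = 0.0368). The 6 genes called on 9 arrays were among them.

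For shRNA 1 against vector the 7 arrays gave 16 calls among the synthetase genes, 8 lower and 8 higher, where 43.9% of all genes were called (20.5% lower and 23.4% higher). For shRNA 2 they gave 13, 12 lower and 1 higher, where 35.4% of all genes were called (18.1% lower and 17.3% higher). With only replicates 1 and 3 of each, shRNA 2 minus shRNA 1 called 11 of the 34, where 41.2% of all genes were called (21.9% lower and 19.3% higher). NARS2 (2.21) and MARS2 (0.51) were higher with shRNA 2. EARS2 (-1.67), TARS2 (-1.09), MARS1 (-0.83), PARS2 (-0.79), AARS1 (-0.70), HARS2 (-0.58), FARS2 (-0.57), SARS1 (-0.51) and KARS1 (-0.47) were lower. These differences are between arrays as labelled, and on 9 arrays without array weights none of them was called. Leaving out the arrays unlike their own label narrows the spread within it by construction. The SE of NARS2 was 0.80 on 9 arrays and 0.18 on 7. These calls are therefore no test of a difference between the shRNAs.

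Of the genes that act on synthetase genes or beside them, ATF4 itself was not called (log2 change -0.04, 95% interval -0.43 to 0.35, adjusted p = 0.906). The list of ATF4 and amino acid response genes had 36 tested, of which 4 fell and 6 rose, with a median of -0.09, where 8.09% of all genes fell and 8.54% rose. SLC7A5, a carrier of large neutral amino acids, fell by 1.56 (adjusted p = 0.000931), and SLC7A1, a carrier of cationic amino acids, fell by 1.56 (adjusted p = 0.00721). PYCR1, an enzyme of proline synthesis, fell by 1.55 (adjusted p = 0.00675). EIF2S1, the alpha subunit of initiation factor eIF2, rose by 2.27 (adjusted p = 0.00292). The other genes of the list that rose were SLC38A2, EIF2AK4, VLDLR, NUPR1 and CEBPG, and the other that fell was SLC3A2. Members of the list thus moved in both directions. On 7 arrays 10 fell and 12 rose, where 41.2% of all genes were called.

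In the 250 bases before the start, TGATGNAA on either strand was found in 4 of the 30 synthetase genes with a promoter entry in RefSeq (13.3%), and in 3.89% of 27305 genes. The 4 were GARS1, IARS1, AARS1 and YARS2. The 6 called genes included 4 with an entry, and 0 of those held a match. AARS2, LARS1, VARS1, VARS2 and YARS1 had no entry. The windows of AARS1 and IARS1 are shown, as cytosolic genes that hold the motif and had negative changes without a call. GARS1, with a change of -0.04, also meets this description and is not shown. The capitals mark TTGCATCA, the match on the printed strand, at -187 to -180 from the start in AARS1 and at -13 to -6 in IARS1. They lie at chr16:70289507-70289756 (minus strand) and chr9:92293698-92293947 (minus strand), and both were chosen after the values were seen.
AARS1: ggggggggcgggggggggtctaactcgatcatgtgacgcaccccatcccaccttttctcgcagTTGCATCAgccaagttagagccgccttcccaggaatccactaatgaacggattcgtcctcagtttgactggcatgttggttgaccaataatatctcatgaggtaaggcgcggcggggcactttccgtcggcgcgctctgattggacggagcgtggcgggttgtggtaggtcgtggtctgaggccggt
IARS1: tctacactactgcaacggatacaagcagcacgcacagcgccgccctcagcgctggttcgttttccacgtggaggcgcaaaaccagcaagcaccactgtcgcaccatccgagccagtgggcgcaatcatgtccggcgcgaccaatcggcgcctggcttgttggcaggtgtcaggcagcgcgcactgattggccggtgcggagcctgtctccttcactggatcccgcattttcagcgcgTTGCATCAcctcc

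MYC, a transcription factor that acts on many genes of protein synthesis, fell. Relative to the vector mean it stood at -0.91, -1.47 and -0.59 with shRNA 1 and at -1.40, -1.15 and -0.997 with shRNA 2, and the vector arrays lay within -0.07 to 0.11. The mean was 47.1% of vector (log2 change -1.09, SE 0.19, adjusted p = 0.00953). CACGTG, the E-box that MYC and several other factors bind, was in the same window of 3 of 30 synthetase genes (IARS1, MARS2 and EARS2, 10%). It was in that of 7.73% of the 27305 genes with a promoter entry, tested here or not. None of the 3 was called on 9 arrays.

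WARS1 was also set beside the interferon gamma response. Of 15 tested genes of that response 2 rose and 0 fell, with a median of 0.30, where 16.6% of all genes were called, while WARS1 fell. IFNGR2, a chain of the interferon gamma receptor, rose by 1.04 (adjusted p = 0.015), and PSMB10, an immunoproteasome subunit, rose by 0.55 (adjusted p = 0.0277). On 7 arrays, where 41.2% of all genes were called, 1 gene of the list fell and 6 rose. A pair of TTTC blocks with any 2 bases between them, as in the interferon-stimulated response element, was searched on either strand. It was found in the window of WARS1 and of EARS2 (2 of 30, 6.67%, against 3.71% of the 27305 genes with a promoter entry). The window of WARS1 at its second annotated start (chr14:100375348-100375597, minus strand) is shown, with the match (GAAACTGAAA) in capitals at -55 to -46 from that start. It was chosen after the values were seen.
WARS1: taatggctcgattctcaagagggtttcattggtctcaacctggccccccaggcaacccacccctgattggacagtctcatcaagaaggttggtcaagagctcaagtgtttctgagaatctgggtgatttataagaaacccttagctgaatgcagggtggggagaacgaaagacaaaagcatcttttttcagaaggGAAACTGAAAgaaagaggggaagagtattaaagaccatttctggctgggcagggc

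Other steps on the path from a tRNA gene to the ribosome were counted in the same fit, in which 8.09% of all genes fell and 8.54% rose on 9 arrays, and 20.5% and 20.7% on 7. Of 20 tested genes of RNA polymerase III and tRNA transcription, 3 fell and 1 rose (median -0.03). POLR3K (-0.74, adjusted p = 0.0119) and POLR3C (-0.73, adjusted p = 0.0225), subunits of the polymerase, fell, as did GTF3C2 (-0.48, adjusted p = 0.0185), a subunit of the initiation factor TFIIIC. POLR3G, an alternative polymerase subunit, rose by 0.36 (adjusted p = 0.0465). On 7 arrays 6 fell and 2 rose.

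Of 25 tested genes of tRNA processing and export, 6 fell and 0 rose (median -0.14), where 8.09% of all genes fell and 8.54% rose. NXT1, a nuclear export factor, fell by 0.99 (adjusted p = 0.0146). POP5, a protein of RNase P, fell by 0.76 (adjusted p = 0.0151), TSEN54 of the splicing endonuclease by 0.64 (adjusted p = 0.0314) and the methyltransferase TRMT5 by 0.62 (adjusted p = 0.0256). The other two were POP1 and TRMT1. On 7 arrays 8 fell and 1 rose, where 20.5% of all genes fell and 20.7% rose.

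Of 9 tested genes of other enzymes that act on charged or uncharged tRNA, 1 fell, PUSL1 (-0.96, adjusted p = 0.0179), a gene related to pseudouridine synthases. None of 8 cytosolic elongation genes (median -0.02) and none of 8 mitochondrial translation factors (median 0.18) was called on 9 arrays, while on 7 arrays the first had 2 lower and 2 higher and the second 3 higher. Of the 3 scaffold genes of the multisynthetase complex only AIMP1 had a probe named for it. It was detected on 4 arrays and changed by -0.11 (adjusted p = 0.754).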

How the data were processed

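Total RNA of 9 BON-1 samples was hybridised to Illumina HumanHT-12 v4 arrays in 1 colour. The deposited probe signal intensity was not background-subtracted and not normalized between arrays, per the file headers; each probe has a deposited detection p-value. The submitters' processing notes name GenomeStudio. A second table, deposited by the authors as linear intensity for 47219 of the 47231 probes, served as an alternative; the steps behind it are not given in the sources used here.

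Intensities were corrected with nec in limma 3.58.1 (R 4.3.3; negative controls inferred from detection p-values, offset 16), quantile normalized and put on a log2 scale. Kept were 22011 probes detected (p under 0.05) on 3 or more arrays, and the brightest of these stood for a gene. Names came from the platform annotation (30108 probes with 1 symbol, 8 with several, the others unnamed here). The median raw signal was 119.5 to 128.8 and 41.4% to 44.9% of probes were detected. The number of arrays limits the precision.

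The model (limma's lmFit and eBayes) had 1 mean for each group, used all 9 arrays and covered 12498 genes, with Benjamini-Hochberg adjustment over all of them. The fit was tested on simulated data, with independent noise and 1 spread per gene in all groups. The arrays differ from this, as in MARS1, with an SD of 0.02 with vector, 0.50 with shRNA 1 and 0.56 with shRNA 2. The simulation therefore cannot vouch for the p-values of these arrays. Differences within enzyme pairs were tested by exact permutation over arrays. Alternatives changed background, normalization, filter, probe, weights, replicate block and arrays. Values on every array are given for each called synthetase gene, and from each pathway list at most 4 called genes with the largest change are named; further genes were picked after their values were seen. The members, lists and the 7-array alternative were chosen with earlier results of these data known.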

Additional observations from a re-analysis of the deposited data

How the results depend on the processing

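Against 6 called synthetase genes with both shRNAs, array weights gave 15, the 7 arrays 11, and leaving out 1 array at a time 2 to 7. For shRNA 1, with 3 calls, no background correction, normexp, median centring and a variance trend each gave 5, array weights 14, the 7 arrays 16, and leaving out 1 array 1 to 6. For shRNA 2, with 3 calls, median centring gave 5, array weights 13, the 7 arrays 13, and leaving out 1 array 1 to 4. For shRNA 2 minus shRNA 1, with 0 calls, array weights gave 12 and the 7 arrays 11. A fit with the replicate number as a block gave 3, 1 and 1 calls for both shRNAs, shRNA 1 and shRNA 2. The main model did not treat same-numbered arrays as paired. Deviations of same-numbered arrays correlated at 0.028 to 0.153 between vector and knockdown and at -0.893 to -0.239 between the shRNAs. These values cannot settle whether same-numbered samples belong together. Each group has 3 arrays, and replicate 2 of each shRNA resembled the other shRNA's arrays.

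Over all genes, 2078 were called with both shRNAs on 9 arrays, 5152 on 7 arrays, 5587 with array weights and 1105 with the block. Without vector replicates 1, 2 and 3 there were 550, 489 and 509. For shRNA 1, calls over all genes went from 1393 to 6188 with array weights and to between 138 and 2150 with 1 array left out, and for shRNA 2 from 1085 to 4041 and to between 119 and 1602. The cytosolic median was -0.21 with median centring, and FARSA minus FARSB was -1.26 with no background correction. Over the 23 alternatives run, CARS2 lost its call in 13, HARS2 in 7, VARS1 in 6 and WARS1 in 3; no alternative turned the direction of these 6 genes. The cause of these shifts was not tested. Dim probes limit the size of a fall that can be read.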
